A study of Capra hircus with 3 samples.

Results

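HOXC13, MSX1 and LEF1 are transcription factors of the hair follicle whose products act in the cells that build the hair shaft. They were taken by symbol, and all 3 were found among the 16739 genes of the table. Their levels were followed in goat fetal dorsal skin at E60, E90 and E120 (60, 90 and 120 days of gestation), and cell by cell against KRT35 and KRT85, a pair of hair keratins of the early shaft, at E120. The animals were untreated Northern Shaanxi White Cashmere Goat fetuses, and each stage was 1 droplet-based single-cell library into which the cells of 2 or more fetuses had been pooled, so no value below can be set against the spread between fetuses. The E60 and E90 libraries came from whole pieces of back skin digested with collagenase IV, while for E120 the follicles were picked out of digested skin with forceps and then dissociated with TypLE Express. A difference between E120 and an earlier stage and a difference between those preparations cannot be told apart.

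HOXC13 is the HOX protein best known for acting in hair and nail, where it binds promoters of hair keratin genes. MSX1 is a homeodomain factor of the BMP pathway, active in hair matrix, tooth and limb, and LEF1 is the DNA-binding partner of beta-catenin through which WNT signals reach their target genes in the placode, the matrix and the forming shaft. In the follicle bulb, dividing matrix cells give rise to the shaft, whose cells make KRT35, KRT85 and later other hair keratins, and to the inner root sheath, the surrounding tube whose cells make KRT25, KRT27 and KRT71 and use the factor GATA3.

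The libraries held 6849, 6931 and 6896 cells at E60, E90 and E120, with medians of 8579, 3714 and 13064 unique molecular identifiers (UMIs) per cell and median mitochondrial shares of 4.52%, 11.1% and 5.26%. Between 9 and 13 cell barcodes were shared by any pair of libraries, and 0 by all 3. Clusters with epithelial markers held 2 of the 6849 E60 cells, 23.4% of E90 and 66.0% of E120. Clusters with dermal markers held 47.0%, 15.2% and 3.18%, and unnamed clusters 44.5%, 56.8% and 22.9%. Levels are CPM, the UMI counts of a gene scaled to the same total in every library or group of cells. Intervals in brackets are exact 95% intervals of the counts and cover counting error only.

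HOXC13 and MSX1 had most of their counts in the E120 library, while LEF1 was well counted at every stage. HOXC13 had 0 counts among the 65049552 UMIs of E60. Its level was 12.4 CPM (11.1 to 13.7) in the E90 library, and the E120 library had 355 CPM (352 to 359). It was at least 268-fold higher at E90 than at E60, taking a floor of 3 counts (0.046 CPM) for E60, and 28.8-fold higher (26.0 to 31.9) at E120 than at E90. MSX1 had 90 counts at E60, or 1.38 CPM (1.11 to 1.70), and 50 counts at E90, or 1.65 CPM (1.23 to 2.18). At E120 it reached 251 CPM (248 to 255). Its first 2 levels overlapped within counting error, and E120 was 152-fold above E90 (115 to 205). LEF1 was at 61.1 CPM (59.2 to 63.1) in the E60 library, at 94.1 CPM (90.6 to 97.6) in that of E90, and at 186 CPM (184 to 189) in that of E120. Its levels were in the order of the stages with no overlap of counting intervals, 1.54-fold (1.47 to 1.62) from E60 to E90 and 1.98-fold (1.90 to 2.06) from E90 to E120.

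A gene is said to have risen or fallen when the log2 ratio of CPM + 1 was past 1 in size, a size rule and not a test. From E90 to E120, 2 of the 3 genes rose, HOXC13 by 4.74 and MSX1 by 6.57 on that scale, beside 9.99% of the 6357 genes that reached 10 CPM in either of these libraries. LEF1, at 0.98, was just under the rule. It was past it at 1.23 when the libraries were scaled by the median of gene ratios, and at 1.10 among epithelial-like cells alone. From E60 to E90 HOXC13 rose and LEF1 did not pass, beside 21.3% of 6278 genes. MSX1 was below 10 CPM in both libraries and was not counted there. From E60 to E120 all 3 rose, beside 19.4% of 5982 genes, and LEF1 was then 3.05-fold higher (2.95 to 3.16). These sums over whole libraries follow the mix of cells as well as the RNA per cell, and the 2 cannot be told apart in them.

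Shares of cells were compared at equal depth. Cells differ in depth, so each was reduced at random to 2000 UMIs (thinned), with 0 cells too shallow for it. HOXC13 was then counted in 0 of 6849 cells at E60 (up to 0.054%), in 2.32% at E90 and in 39.4% at E120. MSX1 was counted in 0.175%, 0.404% and 32.2% of cells, and LEF1 in 756, 1175 and 1881 cells, the last being 27.3%. Without thinning the shares at E60, E90 and E120 were 0%, 4.92% and 68.4% for HOXC13, 0.832%, 0.707% and 65.7% for MSX1, and 39.0%, 31.5% and 67.5% for LEF1. For MSX1 and LEF1 the order of E60 and E90 was then the reverse of the thinned order, and E90 was the shallowest library. KRT35 and KRT85 had 0 counts each at E60, 4.33 and 19.7 CPM at E90, and 5847 and 6796 CPM at E120.

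**Figure D1:**
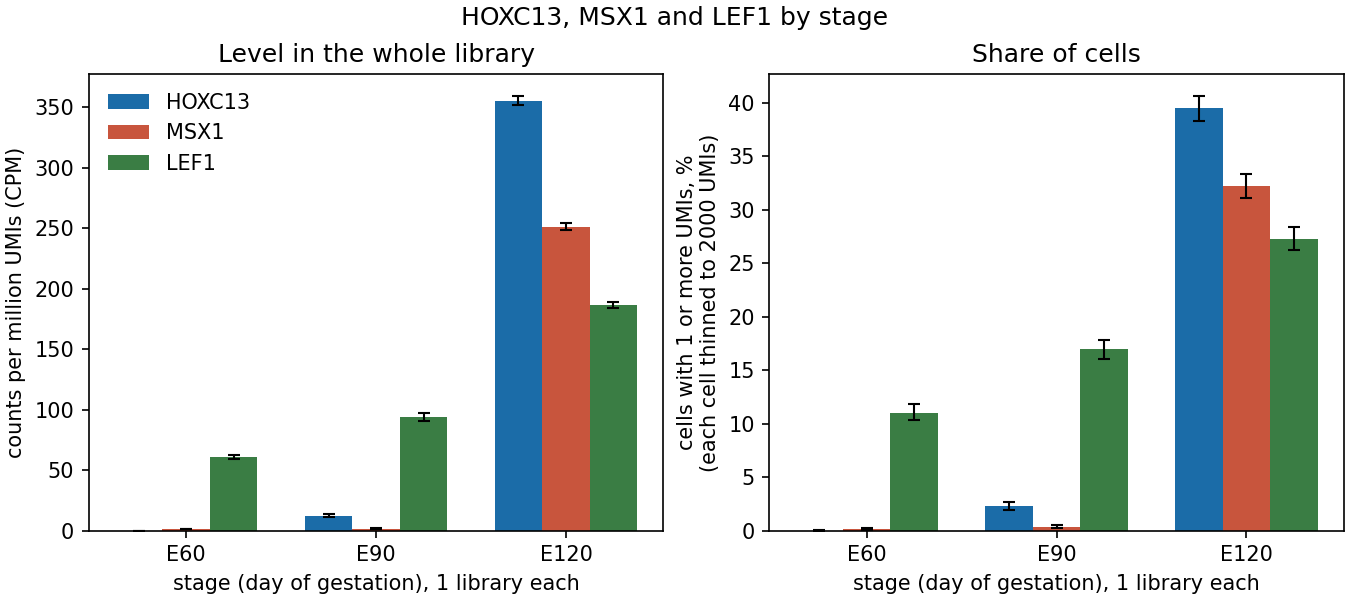
Levels of HOXC13, MSX1 and LEF1 in the 3 libraries, as CPM of the whole library (left) and as the percent of cells with 1 or more UMIs after thinning to 2000 UMIs (right); bars are single libraries and whiskers exact 95% counting intervals. HOXC13 and MSX1 stand at 355 and 251 CPM at E120 against 12.4 and 1.65 CPM at E90, while LEF1 goes from 61.1 to 94.1 and 186 CPM.

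Within E120 the genes differed in where they were high. Clusters were made without these genes and without KRT35 and KRT85, and are called by their leading genes, with a cell type where markers allowed one. HOXC13 was highest in the hair shaft-like cluster led by KRT84 (1629 cells), at 606 CPM (597 to 616). The other hair shaft-like cluster, led by GPRC5D (285 cells), had 470 CPM and an epithelial-like cluster led by CNFN and KRT23 (628 cells) had 461 CPM, values that overlapped within counting error. The next were the unnamed cluster led by DCN and SHH (905 cells) at 329 CPM, the unnamed cluster led by TOP2A and CENPF (652 cells) at 264 CPM and the epithelial-like cluster led by CENPW (1084 cells) at 254 CPM, of which the last 2 overlapped. In the cluster like outer root sheath or basal cells, led by SPP1 (392 cells), HOXC13 was at 153 CPM (138 to 169). The lowest of the 12 E120 clusters was the inner root sheath-like cluster (520 cells), at 25.4 CPM (22.3 to 28.7).

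MSX1 was ordered differently. It was highest in the TOP2A cluster, at 474 CPM (460 to 488), followed by the CENPW, DCN and CNFN clusters at 383, 372 and 371 CPM, which overlapped one another. TOP2A and CENPF are genes of mitosis and CENPW encodes a centromere protein, so the first 2 of these clusters are led by genes of dividing cells. In the shaft-like clusters MSX1 was lower, 178 CPM (173 to 183) in the KRT84 cluster and 43.0 CPM (38.1 to 48.2) in the GPRC5D cluster. The outer root sheath or basal-like cluster had 35.2 CPM, within counting error of the GPRC5D cluster.

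LEF1 was highest in the KRT84 cluster, at 300 CPM (293 to 307). The DCN cluster at 222 CPM (213 to 232), the TOP2A cluster at 215 CPM (205 to 224) and the GPRC5D cluster at 208 CPM (197 to 219) followed without a gap beyond counting error, and the CENPW cluster had 152 CPM. The CNFN cluster, among the highest for HOXC13 and MSX1, had 62.2 CPM (56.9 to 67.9) of LEF1. The inner root sheath-like cluster had 59.7 CPM, and the outer root sheath or basal-like cluster, the lowest, 33.6 CPM (26.7 to 41.6).

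**Figure D2:**
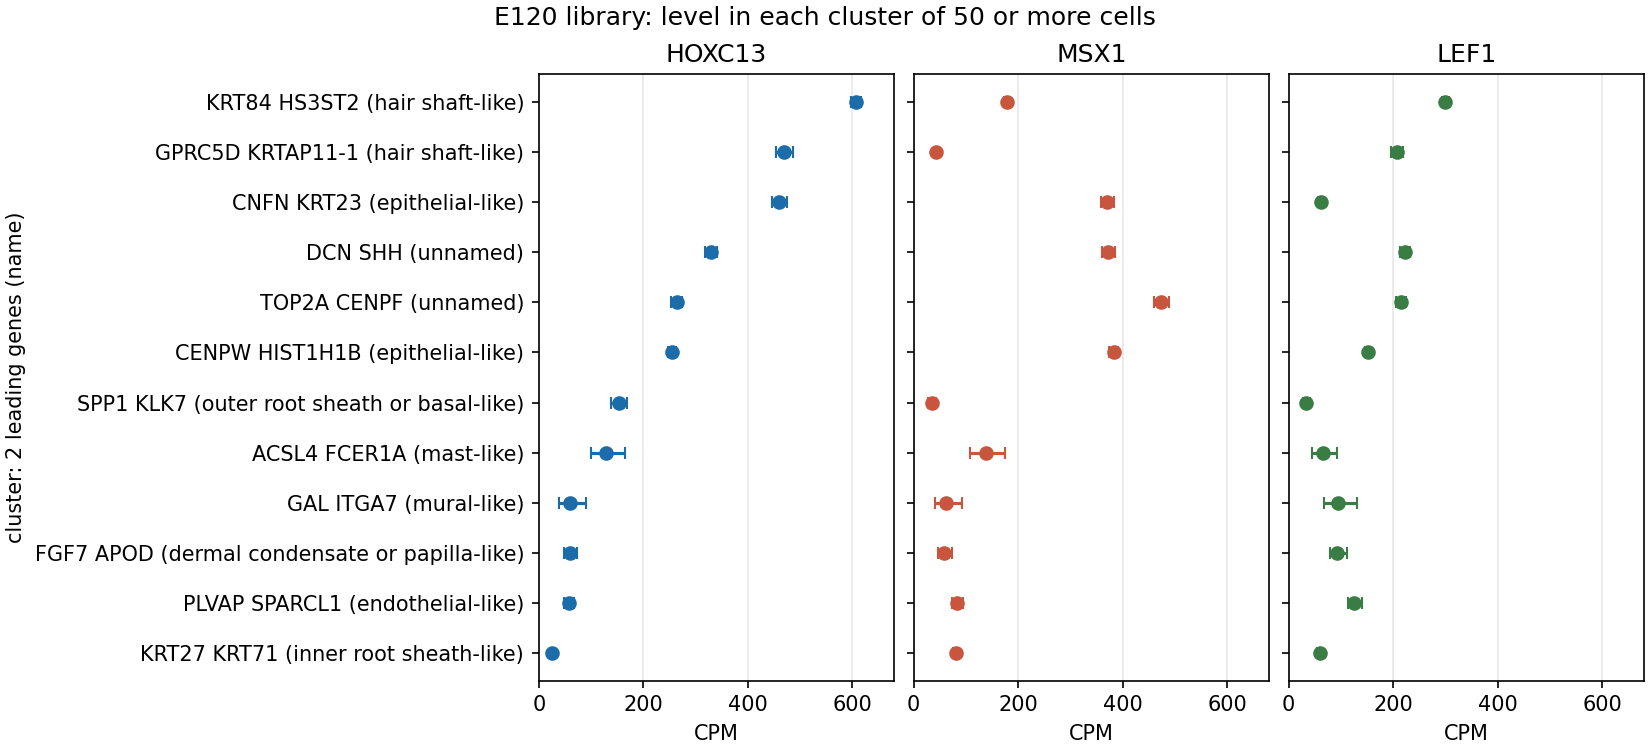
Level of each gene in the 12 E120 clusters of 50 or more cells, as CPM of the summed counts with exact 95% counting intervals, ordered by HOXC13. HOXC13 peaks at 606 CPM in the KRT84 cluster, MSX1 at 474 CPM in the TOP2A cluster, and LEF1 at 300 CPM in the KRT84 cluster with 62.2 CPM in the CNFN cluster.

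Cells of other types carried counts of these genes too. At E120 the endothelial-like cluster (363 cells, median depth 6398 UMIs) had 57.8 CPM of HOXC13, 82.9 CPM of MSX1 and 126 CPM of LEF1. The papilla-like cluster (209 cells, median depth 5534) had 59.6, 58.8 and 93.6 CPM. The mast-like cluster (99 cells, median depth 3751) had 129, 139 and 66.3 CPM, and also 1308 CPM of KRT35, a keratin that mast cells do not make. In thinned cells HOXC13 had a UMI in 7.44% of endothelial-like and 4.81% of inner root sheath-like cells, MSX1 in 12.4% and 18.3%, and LEF1 in 20.7% and 12.3%. The HOXC13 level of this inner root sheath-like cluster of 520 cells was thus below that of the endothelial-like cluster, and it is not read as expression.

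The counts were also set per 100 counts of KRT35. HOXC13 came to 7.27 (6.15 to 8.54) in endothelial-like, 5.82 (4.61 to 7.26) in papilla-like, 10.4 (6.52 to 15.8) in mural-like, 9.83 (7.48 to 12.7) in mast-like and 7.72 (6.75 to 8.80) in inner root sheath-like cells. The clusters that make most KRT35 lay in or below the same range, 3.62 in the KRT84 cluster, 9.19 in the GPRC5D cluster and 7.34 in the CENPW cluster, so a low ratio does not tell background from expression. The outer root sheath or basal-like cluster had 31.0 (27.5 to 34.8), and the DCN, TOP2A and CNFN clusters had between 60.0 and 66.1, all above that range. MSX1 came to 24.5 (22.6 to 26.5) in the inner root sheath-like cluster and to 5.75 to 10.8 in the endothelial-, papilla-, mural- and mast-like clusters. LEF1 ranged among those 4 from 5.07 (3.46 to 7.19) in mast-like to 16.5 (11.4 to 23.3) in mural-like cells. What share of these counts is free RNA was not tested.

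At E90 HOXC13 was spread thinly. The epithelial-like cluster with LHX2, a factor of follicle placodes, among its leading genes (1259 cells) had 19.4 CPM, from 118 of the 374 counts (31.6%). A cluster of 3510 cells led by mitochondrial genes had 12.8 CPM and 47.6% of the counts in 50.6% of the cells, and its cell type was not named. Dermal fibroblast-like cells had 4.68 CPM (3.00 to 6.96), endothelial-like cells 1 count, and the 70 mast-like cells 7 counts. KRT85 was found in 8 of the 161 E90 cells with a thinned UMI of HOXC13 (4.97%, 2.17 to 9.56) and in 2.72% (2.34 to 3.13) of those without, shares that overlapped. Of the 50 MSX1 counts of E90, 25 were in the mitochondrial cluster, and the 87 endothelial-like cells had 5 of them (14.0 CPM, 4.55 to 32.7).

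At E60 MSX1 was nearly all in endothelial-like cells. They were 139 cells, 2.03% of the library, and held 74 of its 90 counts (82.2%), at 31.7 CPM (24.9 to 39.8) and in 29.5% of the cells. Dermal-like cells had 5 counts, or 0.155 CPM (0.050 to 0.362). LEF1 at E60 was highest in an unnamed cluster led by DKK1, an inhibitor of WNT signalling (1027 of the 6849 cells, 126 CPM, 118 to 134), which held 26.5% of the counts. The Schwann- or glial-like cells, at 107 CPM (81.3 to 137), overlapped it, and a cluster led by ASPN and TNMD, a gene of tendon cells, was lowest at 18.1 CPM (15.4 to 21.2). At E90 LEF1 was counted in many types, at 143 CPM (109 to 184) in melanocyte-like, 120 CPM (111 to 130) in dermal fibroblast-like, 96.4 CPM (88.8 to 105) in the LHX2 epithelial-like and 87.0 CPM (59.1 to 123) in endothelial-like cells, while suprabasal epidermis-like cells had 44.4 CPM (34.1 to 56.9).

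The relation to the shaft keratins at E120 was read after thinning each cell to 2000 UMIs and placing it by its summed UMIs of KRT35 and KRT85. HOXC13 was higher where the keratins were, LEF1 likewise, and MSX1 was lowest in the cells with most keratin. In the 5 classes of 0, 1 to 3, 4 to 15, 16 to 63 and 64 or more keratin UMIs (1322, 2528, 934, 1340 and 772 cells), HOXC13 had 183, 186, 322, 559 and 579 CPM. MSX1 had 269, 249, 354, 235 and 101 CPM, with its highest level in the middle class. LEF1 had 118, 119, 171, 317 and 262 CPM, and its last 2 intervals, 296 to 339 and 236 to 288, did not overlap. The first 2 classes did not differ beyond counting error for any of the 3 genes.

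**Figure D3:**
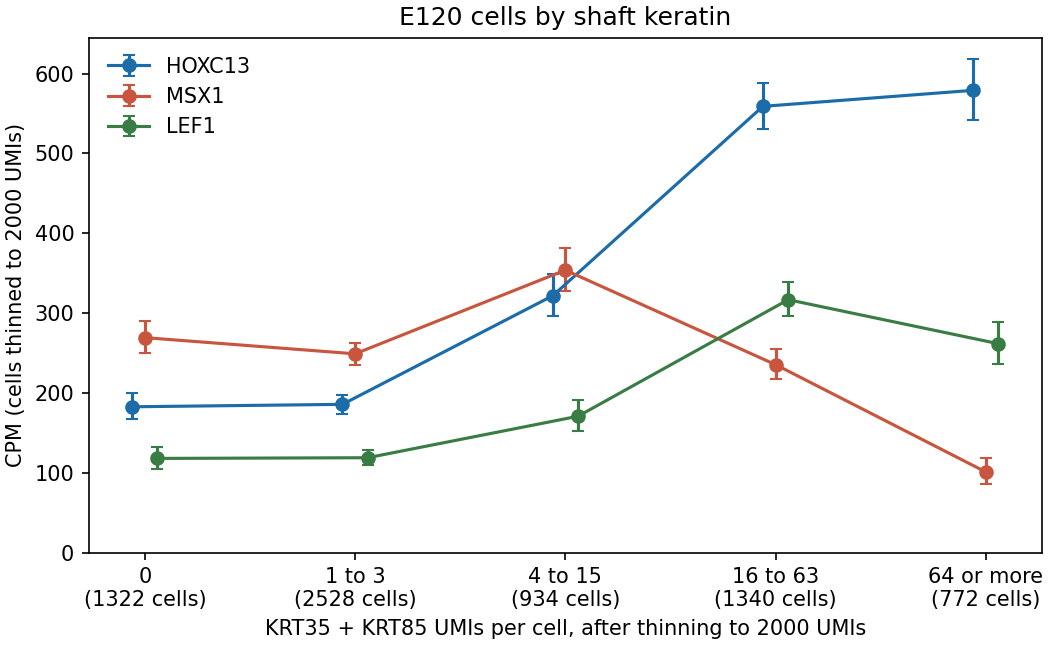
Level of each gene in E120 cells placed by their KRT35 plus KRT85 UMIs, in CPM after thinning to 2000 UMIs, with exact 95% counting intervals; lines join the classes of 1 library. HOXC13 goes from 183 to 579 CPM, LEF1 from 118 to 317 and 262 CPM, and MSX1 from 354 CPM in the class of 4 to 15 down to 101 CPM.

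Cell types that do not make hair keratins also had keratin UMIs. Of the endothelial-, mural-, dermal-, mast- and myeloid-like cells of E120, 18.3% had 0 thinned keratin UMIs, 65.7% had 1 to 3 and 14.2% had 4 to 15. Cells with 1 or more keratin UMIs against cells with 0 gave log2 ratios of 0.95 for HOXC13, -0.15 for MSX1 and 0.72 for LEF1. None of the 3 passed a 2-fold difference there, beside 1.41% of 5522 genes higher and 0.815% lower. Without thinning, the MSX1 value was 1.17, the opposite direction. Among epithelial-like clusters alone HOXC13 (1.55) and LEF1 (2.02) were past 2-fold, and MSX1 was at 0.12. That set leaves out the 1577 unnamed cells of E120, which had 218 CPM of LEF1. They were mostly the DCN and TOP2A clusters, each with a median of 1 keratin UMI. Cells with 64 or more against cells with 0 gave 1.66, -1.41 and 1.14, so HOXC13 and LEF1 were among the 6.02% of 5528 genes higher and MSX1 among the 28.6% lower. The median over all genes was -0.40. The summed level of the mitotic genes TOP2A, CDK1, CENPF and NUSAP1 was 613, 505, 667, 305 and 12.3 CPM over the 5 classes, and its part in the MSX1 values was not tested.

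Inside single clusters the pattern differed. In the KRT84 cluster, cells with 4 to 15, 16 to 63 and 64 or more keratin UMIs had 459 (356 to 583), 582 (549 to 616) and 628 (582 to 678) CPM of HOXC13. MSX1 there was 301 (219 to 405), 202 (183 to 222) and 125 (105 to 148) CPM, intervals that overlapped only between the first pair. LEF1 was 363, 326 and 283 CPM, intervals that overlapped between neighbours. In the DCN cluster, where 84.9% of cells had 3 or fewer keratin UMIs, HOXC13 was 305, 324 and 398 CPM with 0, 1 to 3 and 4 to 15 keratin UMIs, and all 3 intervals overlapped. The CNFN cluster had 437 CPM of HOXC13 (369 to 514) and 434 CPM of MSX1 (366 to 511) in its 166 cells with 0 keratin UMIs. Those zeros hold only at the thinned depth. Without thinning, KRT35 was counted in 95.7% and KRT85 in 90.3% of the 628 cells of that cluster.

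The CENPW cluster, singled out after its values were seen, held the widest range. Its 209, 316, 344 and 215 cells with 0, 1 to 3, 4 to 15 and 16 to 63 keratin UMIs had 43.1 (25.5 to 68.1), 58.5 (41.2 to 80.7), 360 (317 to 408) and 493 (429 to 564) CPM of HOXC13. LEF1 followed with 47.8, 57.0, 188 and 305 CPM. MSX1 was present throughout, at 239 (195 to 291), 343 (299 to 392), 516 (464 to 573) and 419 (360 to 484) CPM. It too was lowest in the cells with 0 keratin UMIs, where its interval lay below all the others. TOP2A, 392, 432, 453 and 577 CPM, was counted in all 4 classes. At Leiden resolution 2 the E120 library had a cluster led by GATA3 (543 cells) and another led by HIST1H1B, CENPF and CENPW (557 cells). Whether the range in the CENPW cluster is a gradient or a mix of cell groups was not tested.

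Genes of the inner root sheath ran the other way in this cluster. GATA3 had 761, 725, 105 and 11.6 CPM over the same classes, KRT71 2208, 2097, 379 and 253 CPM, and KRT25 1749, 1347, 211 and 81.4 CPM. CUX1, a homeodomain factor known from the inner root sheath, had 746, 710, 365 and 237 CPM. SELENBP1, which encodes a selenium-binding protein and is on the list of shaft genes, had 14.4, 11.1, 333 and 563 CPM. BAMBI, an inhibitor of BMP receptors, had 57.4, 127, 221 and 337 CPM. The cells with little keratin in this cluster thus had high counts of inner root sheath genes and low HOXC13 and LEF1. MSX1 was at 239 and 343 CPM in them, against 516 and 419 CPM in the classes with more keratin.

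**Figure D4:**
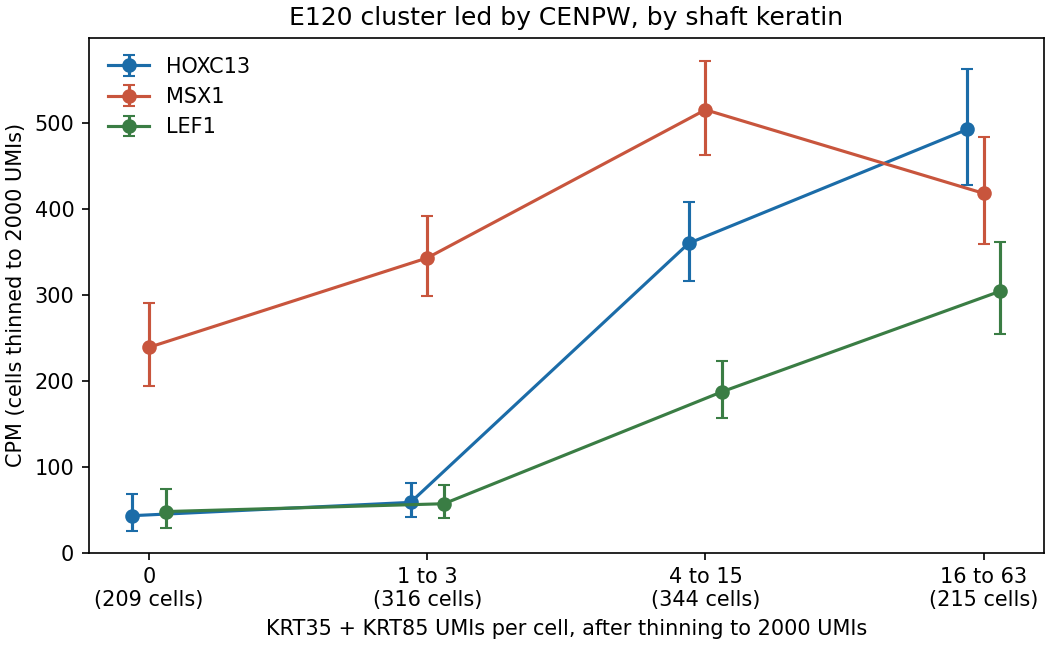
The 1084 cells of the E120 cluster led by CENPW, placed by their KRT35 plus KRT85 UMIs; levels are CPM after thinning to 2000 UMIs with exact 95% counting intervals. HOXC13 and LEF1 go from 43.1 and 47.8 CPM to 493 and 305 CPM. MSX1 is at 239 CPM in cells with no keratin UMI after thinning and at 343, 516 and 419 CPM in the next classes.

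A like division was seen over the whole E120 library, the CENPW cluster included, when cells were placed by GATA3, also chosen after the values were seen. Of the cells with a thinned UMI of GATA3, 389 were in the CENPW cluster, so this is no separate support. The 1110 cells with a thinned UMI of GATA3 had 76.6 CPM of HOXC13 (65.5 to 89.0), against 367 (356 to 378) in the 5786 cells without. LEF1 had 93.7 CPM (81.4 to 107) against 197 (189 to 205). MSX1 had 221 CPM (202 to 242) against 253 (244 to 262), a smaller gap.

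The balance of KRT35 and KRT85 was looked at next. The 2112 cells with 16 or more keratin UMIs were placed by the share of KRT85 in that sum, a split made after the data had been seen. With under 25%, 25 to under 50%, 50 to under 75% and 75% or more (489, 919, 384 and 320 cells), MSX1 had 249 (219 to 283), 207 (187 to 229), 164 (137 to 195) and 56.2 (39.4 to 77.9) CPM. HOXC13 had 550, 604, 591 and 452 CPM, and its last interval (401 to 507) lay below those of the middle classes and overlapped that of the first (505 to 599). LEF1 had 249, 323, 331 and 252 CPM, highest in the middle. Between 74.4% and 98.1% of the cells of each class were in the hair shaft-like clusters. The median keratin sum also rose over the classes, at 33, 51, 66.5 and 87 UMIs. The share of KRT85 and the amount of keratin are thus not told apart by this split.

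**Figure D5:**
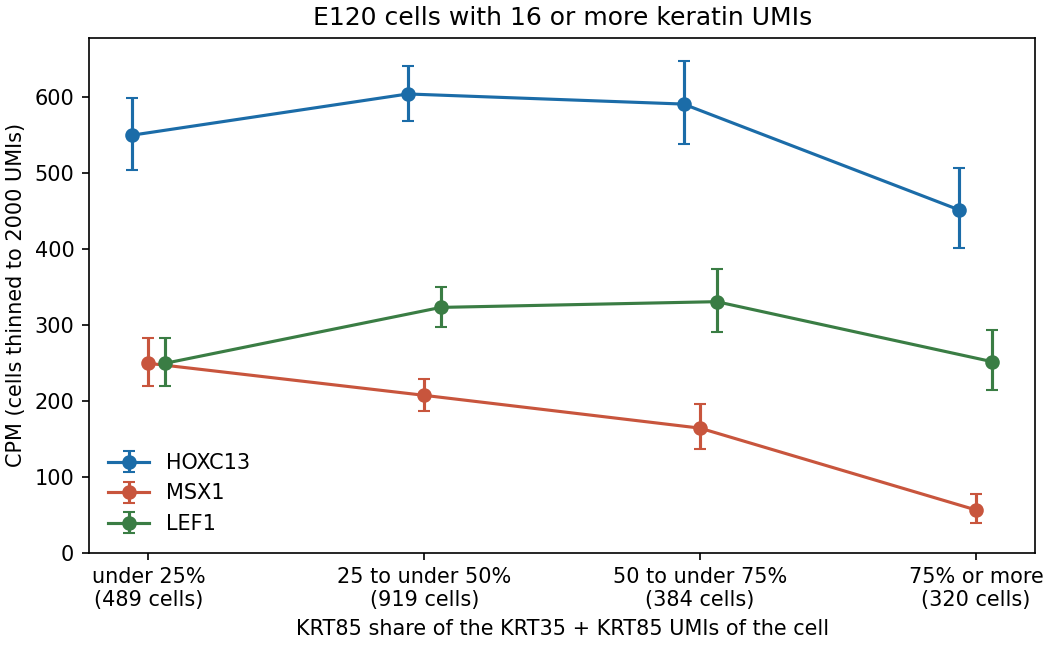
E120 cells with 16 or more keratin UMIs, placed by the share of KRT85 in KRT35 plus KRT85; levels are CPM after thinning to 2000 UMIs with exact 95% counting intervals. MSX1 declines from 249 to 56.2 CPM over the 4 classes, whereas HOXC13 stays between 452 and 604 CPM and LEF1 between 249 and 331 CPM. The median keratin sum rises from 33 to 87 UMIs over the same classes.

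The same cells and thinned counts were also arranged from the side of the factors, which is no separate support. The share of cells with 16 or more keratin UMIs was 17.8%, 45.2%, 55.3% and 62.2% in cells with 0, 1, 2 and 3 or more thinned UMIs of HOXC13. For LEF1 it was 24.4%, 43.4%, 55.8% and 69.1%. For MSX1 it went down, 33.0%, 28.1%, 24.7% and 14.1%.

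Over all 6896 E120 cells, thinned to equal depth, the per-cell Pearson and Spearman correlations were 0.38 and 0.35 between HOXC13 and KRT35, and 0.32 and 0.30 between HOXC13 and KRT85. LEF1 gave 0.23 and 0.21 with KRT35 and 0.20 and 0.18 with KRT85. MSX1 gave -0.02 and -0.01 with KRT35 and -0.13 and -0.11 with KRT85. Within the 1914 cells of the hair shaft-like clusters, HOXC13 gave 0.16 and 0.14 with KRT35 and 0.0036 and 0.0010 with KRT85. LEF1 gave 0.05 and 0.02 with KRT35 there, and -0.02 and -0.02 with KRT85. MSX1 gave 0.07 and 0.01 with KRT35 and -0.18 and -0.18 with KRT85. The cells share a library and its free RNA, and at 2000 UMIs most hold 0 or 1 UMI of each factor, so these values are descriptions and the weak ones are no finding.

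After thinning, 33.7% of E120 cells had no UMI of any of the 3 factors and 346 cells (5.02%) had a UMI of each, shares that depend on the depth of 2000 UMIs. HOXC13 was counted in 49.1% (46.8 to 51.4) of cells with LEF1 and in 35.8% (34.5 to 37.2) of cells without. With and without MSX1 its shares were 45.4% (43.3 to 47.5) and 36.6% (35.2 to 38.0). These shares are over all E120 cell types together. Over all E120 cells the Pearson correlation of HOXC13 was 0.13 with LEF1 and 0.08 with MSX1. Within the 1914 cells of the hair shaft-like clusters it was -0.0015 and -0.014, so no joint occurrence was seen there. The 577 cells with HOXC13 and LEF1 but no MSX1 had 10844 CPM of KRT35 and 11347 CPM of KRT85, against 7124 and 4436 CPM in the 346 cells with all 3, and 2080 and 1511 CPM in the 893 cells with MSX1 alone. Within the hair shaft-like clusters these KRT35 levels were closer, 14893, 15044 and 12663 CPM, and the KRT85 levels were 16204, 10405 and 11801 CPM.

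Partners of LEF1 in WNT signalling were taken from a list of 22 genes, 21 of them in the table and 13 at 10 CPM or more in a compared library. From E90 to E120, 2 rose and 5 fell, with a median log2 ratio of -0.76 beside -0.24 over all genes, of which 9.99% rose and 24.2% fell. WNT10A, a WNT ligand of placode and matrix, rose from 18.0 to 49.7 CPM, and TLE4, a co-repressor, from 6.94 to 16.5 CPM. FZD10, a WNT receptor, had 29.7 and 46.9 CPM. Of the other DNA-binding partners of beta-catenin, TCF7L2 fell from 183 to 27.7 CPM and TCF7L1 from 23.6 to 2.59 CPM, while TCF7 had 0, 0.925 and 0.931 CPM at the 3 stages. BCL9, a co-activator, fell from 24.5 to 4.92 CPM. CTNNB1, which encodes beta-catenin, had 73.9 and 58.0 CPM. With 64 or more against 0 keratin UMIs at E120, 0 of 11 of these partners were higher and 4 were lower, beside 6.02% and 28.6% of all genes. TCF7L2 was at 48.0, 63.5, 46.0, 9.33 and 4.53 CPM over the keratin classes, and LEF1 at 118, 119, 171, 317 and 262 CPM.

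Of the list of WNT response genes, 10 of 12 were in the table and 6 were counted from E90 to E120. None rose and 2 fell, beside 9.99% and 24.2% of all genes, with a median log2 ratio of -0.61. NKD2 fell from 84.7 to 6.33 CPM and LGR5, a receptor of follicle stem and matrix cells, from 78.1 to 6.20 CPM. AXIN2, a feedback inhibitor of the pathway, had 39.7 and 27.8 CPM, and NKD1 had 77.3 and 46.5 CPM. CCND1, a cyclin gene, had 384 and 583 CPM, and ZNRF3, a ubiquitin ligase that removes WNT receptors, had 31.5 and 32.7 CPM. Over the E120 keratin classes AXIN2 had 21.6, 26.3, 26.8, 34.3 and 28.5 CPM, and LGR5 had 0 counts in the cells with 16 or more keratin UMIs.

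Most other genes of the HOXC cluster had few counts. HOXC12, the neighbour of HOXC13 in RefSeq's gene list (assembly ARS1.2), had 0, 0 and 14 counts at E60, E90 and E120, and HOXC11 had 6, 4 and 17 counts. Of the 8 genes listed, 7 were in the table and 2 reached 10 CPM, and both fell, beside 24.2% of all genes. HOXC4 fell from 63.3 to 9.33 CPM and HOXC8 from 15.5 to 6.15 CPM between E90 and E120.

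Among genes of the BMP pathway and relatives of MSX1, 11 of 14 were in the table, and 4 of 9 rose and 2 fell from E90 to E120, with a median log2 ratio of 0.94, beside 9.99% and 24.2% of all genes and their median of -0.24. BAMBI rose from 6.84 to 619 CPM. ID1 and ID3, targets of BMP signals, rose from 202 and 204 to 1761 and 1677 CPM, and the ligand BMP4 rose from 30.5 to 71.1 CPM. SMAD1, which carries the signal to the nucleus, fell from 98.0 to 25.2 CPM, and DLX5, a homeodomain factor, from 24.6 to 11.4 CPM. SMAD5, a relative of SMAD1, had 39.5 and 30.6 CPM. With 64 or more against 0 keratin UMIs, 2 of 9 were higher and 1 was lower, beside 6.02% and 28.6% of all genes. The higher ones were BMP4 and BAMBI, at 104 and 1103 CPM against 50.3 and 477 CPM in cells with 0. ID3 was the lower one, at 802 against 1891 CPM.

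Other follicle transcription factors were on a list of 25 genes, 24 of them in the table. From E60 to E90, 12 of 14 rose and 1 fell, beside 21.3% and 8.08% of all genes. Epithelial-like cells were 2 at E60 and 1620 at E90, and their part in these values was not tested. From E90 to E120, 2 of 15 rose, ZNF750 and HR, and 6 fell, with a median of -0.75, beside 9.99% and 24.2% of all genes and their median of -0.24. SOX9, a factor of the outer root sheath, fell from 328 to 33.7 CPM, and KLF5, a zinc finger factor of epithelia, from 275 to 82.5 CPM. BCL11B, a zinc finger factor, fell by 3.71 on the log2 scale, to 14.4 CPM. CUX1 was at log2 0.73, to 282 CPM, LHX2 had 145 and 127 CPM and GATA3 165 and 176 CPM, none of them past the rule. With 64 or more against 0 keratin UMIs, 1 of 15 was higher and 7 were lower, beside 6.02% and 28.6% of all genes and their median of -0.40. The first was KLF5, with 178 against 60.9 CPM, and among the others GATA3 had 7.12 against 293 CPM and SOX9 3.24 against 52.6 CPM.

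Other shaft genes were on a list of 18. Of these, 12 were in the table, and the 7 counted from E90 to E120 all rose, beside 9.99% of all genes. SELENBP1 rose from 7.03 to 245 CPM. Neither GPRC5D nor KRT84 was counted at E90, and they reached 518 and 251 CPM at E120. DSG4, which encodes a desmosomal cadherin of hair, and the keratins KRT36 and KRT33A were not counted at E90 either and had 17.3, 10.8 and 10.7 CPM at E120. In cells with 64 or more against 0 keratin UMIs, 7 of 8 were higher, beside 6.02% of all genes. PADI3, which encodes a peptidylarginine deiminase, was lower there, at 18.1 against 128 CPM. KRT85 is not a symbol in the RefSeq list used, so the identity of its row rests on the deposited symbol. KRT35, KRT84 and KRT85 have close paralogs, and how reads shared between them were counted is not given in the sources used here.

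The genes most like each factor were found over the 32 groups of 50 or more cells formed by a cluster within a library, by Pearson correlation of log2(CPM + 1). For HOXC13 they were KRT85 at 0.93, SLC35G1, DNAJC21, RAB21 and PROM2 at 0.92 to 0.93. For MSX1 they were FABP3.1 at 0.91, NPTX2, DLX4, ID1 and GTF2F2 at 0.88 to 0.90. For LEF1 the likeness was lower, with HSP90AB1 at 0.71 and EIF3B, CCT2, EIF2S3B and SDAD1 at 0.67 to 0.70. The groups share libraries, so a difference between stages enters these values. Over the 12 E120 groups alone none of the 5 genes was kept for HOXC13 or MSX1 and only EIF3B for LEF1, and HOXC13 then gave 0.58 with KRT35 and 0.55 with KRT85, MSX1 0.02 and -0.26, and LEF1 0.55 and 0.46.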

How the data were processed

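The deposited table gave natural log values per gene and cell for 3 libraries, 1 per stage, made with 10x Genomics 3′ chemistry per the labels' protocols and with Cell Ranger 3.0.2 per the submitters' processing notes. The genome build, annotation and filters are not given in the sources used here. Values were the natural log of 1 plus the UMI count scaled to 10000 per cell, as the deposited values themselves showed. Inversion gave whole counts for 100% of nonzero values within 0.01, taking the smallest value of a cell as 1 UMI. The table had 20676 cells, against 19705 stated by the submitters, and all were used. Totals were 65049552, 30277663 and 93403291 UMIs.

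Counts were summed and scaled to CPM. No test was made, as each stage had a single library, and log2 ratios of CPM + 1 served for comparing stages. The comparisons had been laid out for deposited counts, and recovered counts were used in their place. For per-cell relations each cell was thinned to 2000 UMIs. Clusters came from 2000 variable genes (without the 3 factors, KRT35 and KRT85), 30 principal components, 20 neighbours and Leiden resolution 1 (leidenalg 0.10.2, igraph 0.11.9, scikit-learn 1.9.0, numpy 2.4.6, scipy 1.17.1, pandas 2.3.3, Python 3.11.15), which gave 29 clusters. Names came from listed markers. A cluster stayed unnamed with under 3 markers, or with more markers of another class than its own among its 10 leading genes. It also did with 3 or more mitochondrial or haemoglobin genes among those 10. With no own marker there, it stayed unnamed if it was shallow or outside the epithelial and dermal classes. No doublet was removed. As an alternative the 6% of cells with the highest simulated-doublet score per library were left out.

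The text names the 3 factors and 2 keratins, the 5 genes most like each factor, and from each list the 3 largest and 3 smallest E120 over E90 ratios. Other genes named from the lists, and KRT71, KRT25 and TOP2A, were chosen after their values were seen. The 3 factors and the lists were chosen with earlier results of these data known.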

Additional observations from a re-analysis of the deposited data

How the results depend on the processing

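Of 72 values under alternatives, 42 were labelled as unchanged and 30 as moved. The label was set by the counting interval, except for the numbers of most like genes kept, which have none. A change of sign was looked for only where the main value was 1 or more in size, and 0 were found. The contrasts of 1 or more against 0 keratin UMIs were below that size, and that of MSX1 changed sign in some alternatives. From E90 to E120 the log2 ratio of HOXC13 (4.74) was 4.98 with median-of-ratios scaling, 4.03 with a pseudocount of 10 CPM and 4.47 in epithelial-like cells, the last an alternative chosen after seeing the data. That of MSX1 (6.57) was 4.49 with a pseudocount of 10 CPM. That of LEF1 (0.98) was 0.90 with each cell weighing the same, 1.23 with median-of-ratios scaling, 0.92 with a pseudocount of 10 CPM and 1.10 in epithelial-like cells. From E60 to E90, HOXC13 (3.74) was 1.16 with a pseudocount of 10 CPM and LEF1 (0.61) was 0.49 with median-of-ratios scaling. For 1 or more against 0 keratin UMIs, HOXC13 (0.95) was 1.20 when thinned to 1000 UMIs, 1.35 unthinned, 1.55 in epithelial-like clusters and 1.42 for 16 or more against under 16 keratin UMIs, a division also chosen after seeing the data. MSX1 (-0.15) was 1.17 unthinned, 0.0046 by KRT35 alone, -0.40 by KRT85 alone, 0.12 in epithelial-like clusters and -0.56 for 16 or more. LEF1 (0.72) was 2.02 in epithelial-like clusters and 1.20 for 16 or more. The highest cluster level was 582, 678 and 596 CPM for HOXC13 at resolution 0.5, at resolution 2 and with all genes allowed in the clustering, 424 CPM for MSX1 at resolution 0.5, and 284 and 333 CPM for LEF1 at resolutions 0.5 and 2. Over E120 clusters alone 0, 0 and 1 of the 5 most like genes were kept. The cause of these shifts was not tested. No paired analysis was possible because each stage was 1 library. The E90 library was the shallowest, so levels there near its floor of 0.099 CPM rest on few counts, and a filter on genes and mitochondrial share left 2756 of its 6931 cells.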
